A study of Homo sapiens with 18 samples.

Results

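The 10 genes described here encode the MYC and MAX network of transcription factors: MYC, MAX, MXD1, MXD3, MXD4, MXI1, MNT, MLX, MLXIP and MGA. They were picked out by symbol, as a set proposed with earlier results of these data known. All 10 were found among 60609 gene identifiers, and all 10 passed the filter on low counts that left 20920 genes for testing. The cells were OCI-AML1, an established human acute myeloid leukemia line labelled WT, kept for either 8 h or 24 h in DMSO, in AML874 or in SEL120-34A. The last of these blocks the Mediator kinases CDK8 and CDK19, while AML874 is given in the labels by its code name only. Each of the 6 groups had 3 libraries of polyadenylated RNA, and the labels give no dose and no source of the replicates. The title places the study in Mediator kinase inhibition and sensitivity to venetoclax, an inhibitor of BCL2. A line is a single genotype, so these values describe OCI-AML1 and no other leukemia.

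MYC activates genes only as a dimer with MAX, which binds the DNA sequence known as the E-box. MAX pairs with other partners too. The MXD proteins, MXI1 and MNT take the place of MYC on MAX and bring the SIN3 and HDAC corepressors to the same sites. MGA is a very large MAX partner that works in a variant Polycomb complex, and MLX is a MAX-like factor that pairs with MLXIP (also called MondoA), a sensor of glucose metabolites. MYC is a driver of growth in many leukemias, while the MXD factors are generally linked to differentiation and arrest of the cell cycle.

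Both compounds lowered MYC mRNA modestly at both times, by at most 1.18-fold. The antagonists did not move as a block. MXD4 fell with AML874 at 8 h but rose with it at 24 h, and rose with SEL120-34A at both times. MXD3 moved in opposite directions with the 2 compounds at 8 h, and MXD1 fell most with AML874 at 24 h. In CPM (counts scaled to library size) MAX rose slightly with SEL120-34A at both times, but at 24 h its length-scaled level overlapped DMSO. MLX and MNT fell in every comparison with DMSO.

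The libraries held 98975944 to 142496541 counts in genes, and the members had from 1672 to 94308 counts in a single library, so that counting error was small for each. Of 10 myeloid markers, 7 or 8 had a group mean of at least 1 CPM (counts scaled to library size), with ANPEP and CD14 at or near 0 in all libraries. The myeloid markers summed to 966 to 981 CPM in DMSO at 24 h, 814 to 820 CPM with AML874 and 857 to 887 CPM with SEL120-34A, but the genes went both ways. At 24 h MPO went from 34.98 CPM in DMSO to 4.79 CPM with AML874 and 12.1 CPM with SEL120-34A, while CD34 went from 0.716 to 6.22 and 7.63 CPM and PTPRC from 315 to 353 and 349 CPM. Of 9 tested, 2 rose and 5 fell with each compound, and their part in the members' changes was not tested. Markers of T and B cells summed to at most 1.78 CPM in any library, and markers of erythroid cells and platelets to at most 0.0694 CPM. The 5 stromal, endothelial and epithelial markers summed to 1.14 CPM in AML874 24 h replicate 1 and to at most 0.125 CPM in any of the other libraries. Without that library AML874 at 24 h still changed 8 members against DMSO. In bulk RNA, fewer cells of one kind and less RNA per cell cannot be told apart.

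MYC had the highest level of the 10 genes in each library when levels were scaled for transcript length, as TPM (a share of all transcripts, from the authors' RSEM files). Its mean over the 18 libraries was 450.2 TPM, above 99.2% of all genes with a TPM over 0. MAX followed at 77.1 TPM and MLX at 44.3 TPM. The 4 MXD-family genes lay far lower, with means of 28.8 TPM for MXD4, 26.4 TPM for MXI1, 23.3 TPM for MXD3 and 7.49 TPM for MXD1. MLXIP averaged 21.6 TPM, MNT 16.9 TPM and MGA 9.88 TPM.

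The order at the top and the bottom was fixed, and the middle moved with treatment. In all 6 groups MYC was highest, then MAX, then MLX, and MNT, MGA and MXD1 were the lowest 3 in that order. The ranges of MYC, MAX and MLX did not meet each other or any lower gene. In DMSO at 8 h the ranges of MXI1, MXD4 and MXD3 met (22.6 to 34.4, 23.4 to 26.1 and 23.6 to 25.6 TPM). At 24 h MXD4 came next after MLX with either compound, at 32.8 ± 1.03 TPM (SD, n = 3) with AML874 and 37.3 ± 0.617 TPM (SD, n = 3) with SEL120-34A, while MXI1 held that place in DMSO at 35.5 ± 3.30 TPM (SD, n = 3). With SEL120-34A at 24 h the ranges of MXD4 and MXI1 met, and with AML874 at 24 h those of MXD3 and MNT did.

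**Figure D1:**
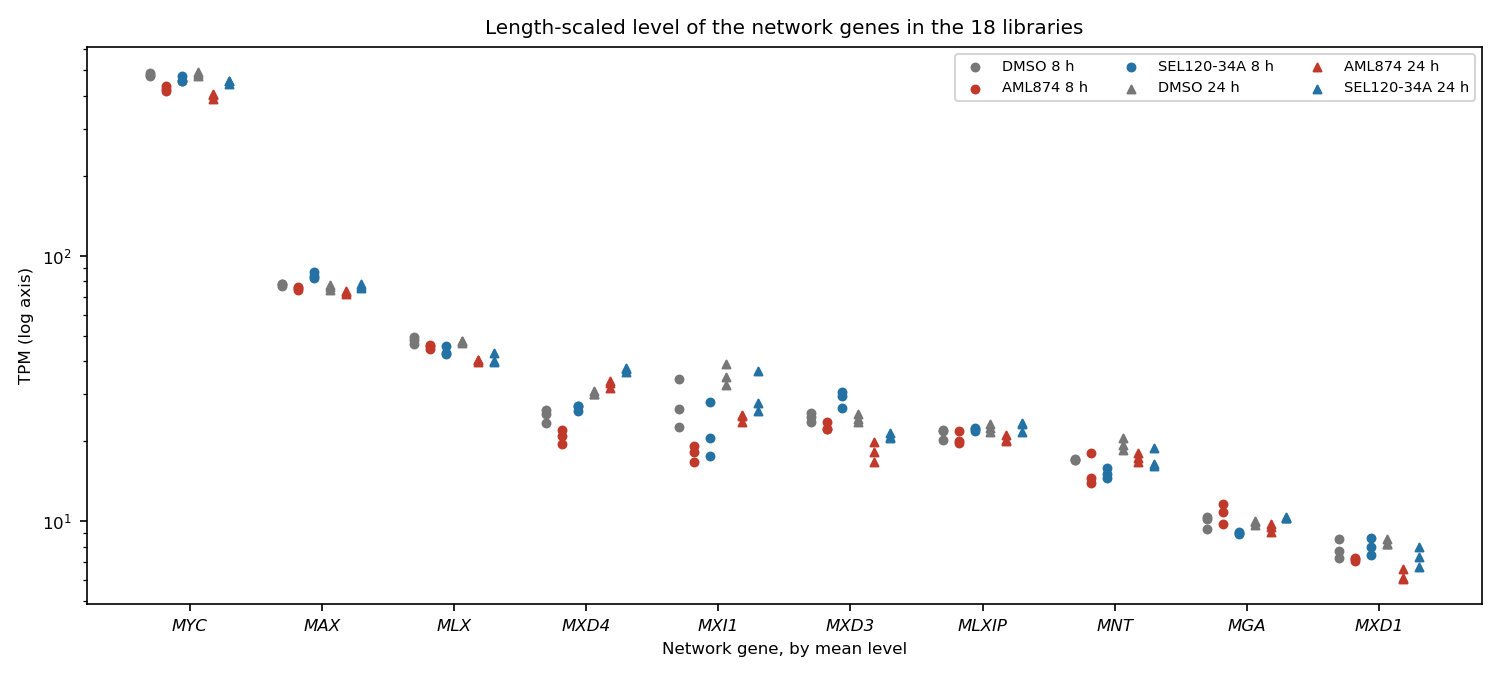
Level of the 10 network genes in TPM on a log axis, 1 point per library, with circles for 8 h, triangles for 24 h and a color for each compound. MYC lies between 389 and 491 TPM in all 18 libraries, above MAX at 71.8 to 86.5 TPM, and MXI1 has the widest spread, with its highest library 2.35 times its lowest.

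Within each library, MYC transcripts were 5.42 to 6.60 times as many as MAX transcripts. The ratio of MYC to MAX was 6.11 to 6.32 in DMSO at 8 h, 5.60 to 5.75 with AML874 and 5.43 to 5.53 with SEL120-34A. At 24 h it was 6.15 to 6.60 in DMSO, 5.42 to 5.57 with AML874 and 5.68 to 5.99 with SEL120-34A. The ratio was therefore lower in every treated library than in every DMSO library of the same time. This comparison within libraries does not depend on scaling between libraries, and no test was run on it.

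The ratio of MYC to its competitors for MAX (MXD1, MXD3, MXD4, MXI1 and MNT, summed in TPM) did not separate the groups in that way. At 24 h it was 4.06 to 4.12 in DMSO, 4.02 to 4.05 with AML874 and 3.81 to 4.21 with SEL120-34A. At 8 h it was 4.31 to 4.99 in DMSO, 4.97 to 5.09 with AML874 and 4.21 to 4.86 with SEL120-34A. Only the ranges of AML874 and DMSO at 24 h and of the 2 compounds at 8 h stayed apart. MXD4 made up 29.7 to 31.6% of the summed MXD-family TPM in DMSO at 24 h, but 38.5 to 41.6% with AML874 and 36.5 to 41.1% with SEL120-34A.

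The E-box is the element that all MAX dimers read, so the members' own promoters were searched for CACGTG, which reads the same on both strands. RefSeq windows (GRCh38.p14) of 250 bases before to 50 bases after a start were held for 9 members, in 14 windows. MYC has no entry. An E-box was found in 3 of the 9 members, MXD4, MNT and MLX, in 1 window each. Of all 35116 windows, 7.26% hold CACGTG. The sites are shown with 12 bases on each side and with the E-box in capitals, because MXD4 has the largest turn in direction of the network and MNT and MLX fell in every comparison with DMSO.
MXD4, chr4:2262330-2262359, minus strand, 238 bases before the start: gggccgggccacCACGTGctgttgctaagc
MNT, chr17:2401236-2401265, minus strand, 193 bases before the start: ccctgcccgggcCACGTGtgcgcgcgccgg
MLX, chr17:42567038-42567067, plus strand, 50 bases before the start: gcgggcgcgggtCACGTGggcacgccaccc
The flanks of the 3 sites differ, and each site lies before the start of its gene in GENCODE release 29 (MXD4 at chr4:2247432-2262294, MNT at chr17:2384060-2401118, both minus strand, and MLX at chr17:42567068-42573239, plus strand). The distances above count to the RefSeq start, which differs from the GENCODE start in all 3 genes. Exon records of GENCODE release 29 overlap the part before the RefSeq start, 1 for MXD4, 2 for MNT and 6 for MLX. A match shows only that these letters are in the window.

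MYC was lowered by both compounds. At 8 h the 3 DMSO libraries had 688, 679 and 677 CPM, those with AML874 566, 586 and 585 CPM, and those with SEL120-34A 607, 603 and 635 CPM. Every treated library was below every DMSO library, and every AML874 library below every SEL120-34A library. The log2 change was -0.23 ± 0.03 (SE) with AML874 (edgeR adjusted p = 1.81e-09) and -0.15 ± 0.03 (SE) with SEL120-34A (edgeR adjusted p = 9.06e-06), a fall of 1.18-fold and 1.11-fold.

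At 24 h MYC had 689.9, 656 and 643 CPM in DMSO, 571, 565 and 555 CPM with AML874, and 614, 606 and 610.1 CPM with SEL120-34A. The groups again did not overlap, in the same order. On the log2 scale the change was -0.23 ± 0.03 (SE) with AML874 (edgeR adjusted p = 1.19e-09) and -0.12 ± 0.03 (SE) with SEL120-34A (edgeR adjusted p = 0.000216). The effect of AML874 at 24 h differed from that at 8 h by 0.00 on the log2 scale, with a 95% interval of -0.07 to 0.07, and that of SEL120-34A by 0.03 (-0.05 to 0.10). MYC was lower with AML874 than with SEL120-34A by -0.09 at 8 h (edgeR adjusted p = 0.00696) and by -0.11 at 24 h (edgeR adjusted p = 0.00105). With library totals in place of TMM scaling, the fall with SEL120-34A at 8 h was -0.08 and still passed the test.

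With no dose in the labels, a difference between the compounds cannot be told apart from a difference in dose, and the comparisons of the 2 compounds with DMSO at one time share the same DMSO libraries.

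**Figure D2:**
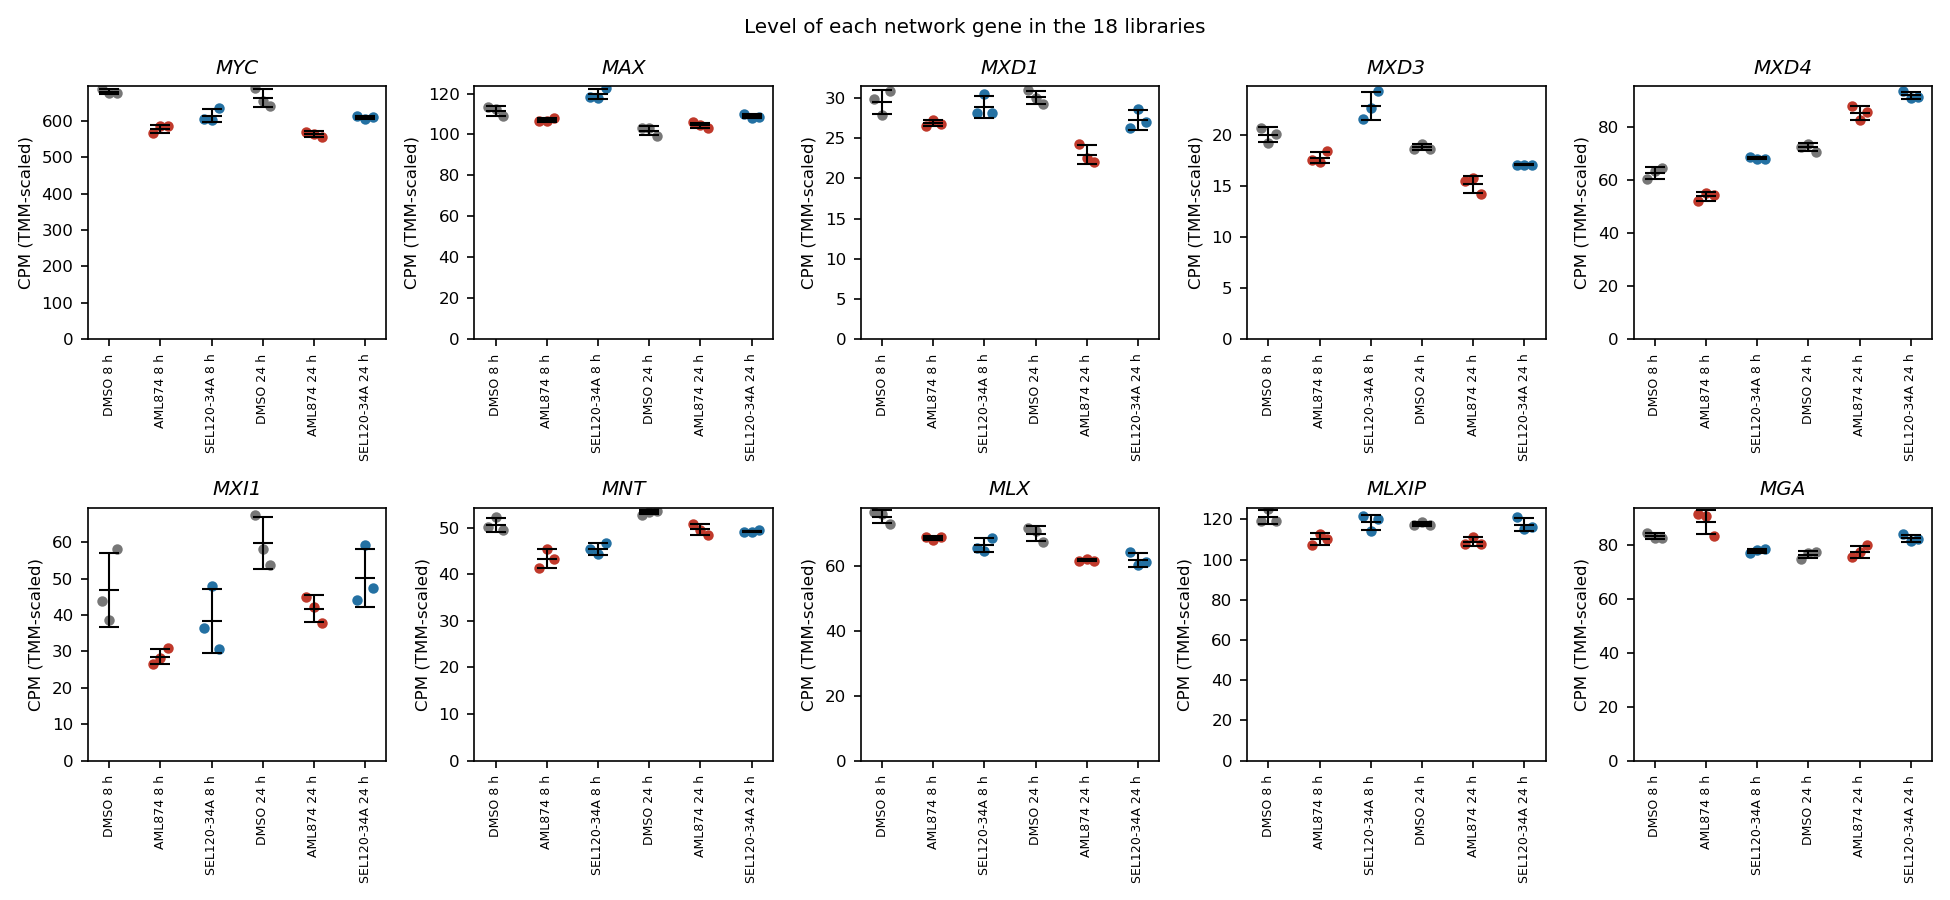
CPM of each network gene by group, with 1 colored point per library (3 in each group) and a black mean with SD. MYC is lower in all treated libraries than in DMSO of the same time, MXD4 with AML874 sits below DMSO at 8 h (52.0 to 55.0 against 60.1 to 64.4 CPM) and above it at 24 h (82.4 to 87.7 against 70.6 to 73.6 CPM).

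MAX, the obligate partner, moved little. It had 113, 112 and 109 CPM in DMSO at 8 h, 106, 107 and 108 CPM with AML874, and 118, 118 and 123 CPM with SEL120-34A. All SEL120-34A libraries were above all DMSO libraries, and the AML874 libraries were the lowest by a narrow margin. MAX rose by 0.10 ± 0.03 (log2, SE) with SEL120-34A at 8 h (edgeR adjusted p = 0.00137) and by 0.10 ± 0.03 (log2, SE) at 24 h (edgeR adjusted p = 0.00235). With AML874 its change was -0.06 at 8 h (edgeR adjusted p = 0.0655) and 0.04 at 24 h (edgeR adjusted p = 0.235). At 24 h it was 0.07 and passed with a filter of 1 CPM in 3 libraries (edgeR adjusted p = 0.0129). The change at 8 h passed with DESeq2 (adjusted p = 0.0352), and without DMSO 8 h replicate 3 it was -0.09 (edgeR adjusted p = 0.00563). In TPM at 24 h MAX ran from 74.3 to 77.4 in DMSO, 71.8 to 73.3 with AML874 and 75.8 to 77.9 with SEL120-34A. By that measure SEL120-34A overlapped DMSO and AML874 lay below it, while in CPM both compounds lay above DMSO.

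AML874 at 8 h changed 9 of the 10 members against DMSO, 1 higher and 8 lower. Of all genes tested, 39.6% were called in that comparison, 19.7% higher and 19.9% lower. SEL120-34A at 8 h changed 7 members, 3 higher and 4 lower, where 45.1% of all genes were called, 22.4% higher and 22.6% lower. At 24 h AML874 changed 8 members, 1 higher and 7 lower, where 46.8% of all genes were called, 23.1% higher and 23.7% lower. SEL120-34A at 24 h changed 8 members, 3 higher and 5 lower, where 37.7% of all genes were called, 19.1% higher and 18.6% lower. Every member had at least 14.2 CPM in each library, while 10513 of the 20920 genes tested reached 5 CPM on average. The share called among genes of a like level was not computed.

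The CPM of the 3 treated and the 3 DMSO libraries did not overlap at 8 h for 9 members in the case of AML874 and for 7 in that of SEL120-34A, and at 24 h for 9 and 8. Over all genes the same held for 48.7% and 51.8% at 8 h and for 53.5% and 45.8% at 24 h. The median log2 change of the members was -0.15, -0.06, -0.14 and -0.12 in these 4 comparisons, in that order, beside medians within 0.01 of 0 for all genes. The median size of change, without its sign, was 0.15 for the members and 0.18 for all genes with AML874 at 8 h, and 0.13 and 0.20 with SEL120-34A. At 24 h it was 0.21 for both with AML874, and 0.13 and 0.17 with SEL120-34A.

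**Figure D3:**
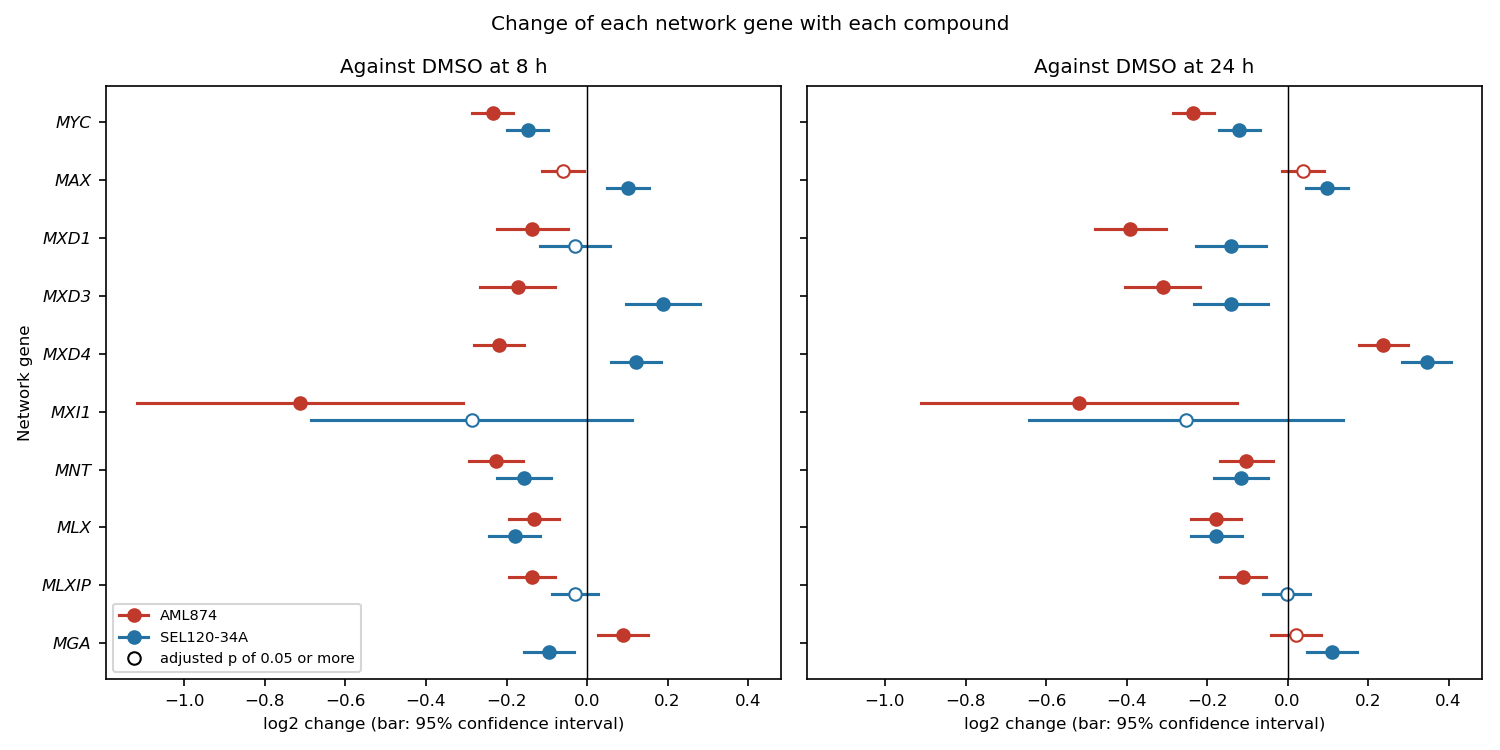
log2 change of each network gene against DMSO at 8 h (left) and 24 h (right), with bars for the 95% confidence interval, and open points for an edgeR adjusted p of 0.05 or more. MXD3 and MXD4 lie on opposite sides of 0 for the 2 compounds at 8 h, MXD4 is above 0 for both at 24 h, and MXI1 has the widest intervals.

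MXD4, a MAX partner that represses MYC target sites, changed direction with time under AML874 and was higher with SEL120-34A at both times. At 8 h it had 60.1, 63.2 and 64.4 CPM in DMSO, 52.0, 55.0 and 54.3 CPM with AML874, and 68.5, 67.9 and 67.8 CPM with SEL120-34A. The AML874 libraries were all below DMSO and the SEL120-34A libraries all above it. The log2 change was -0.22 ± 0.03 (SE) with AML874 (edgeR adjusted p = 3.95e-07) and 0.12 ± 0.03 (SE) with SEL120-34A (edgeR adjusted p = 0.00134).

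At 24 h MXD4 had 72.5, 73.6 and 70.6 CPM in DMSO, 87.7, 82.4 and 85.5 CPM with AML874, and 93.3, 90.8 and 91.2 CPM with SEL120-34A. Both compounds now lay above DMSO without overlap. MXD4 rose by 0.24 ± 0.03 (log2, SE) with AML874 (edgeR adjusted p = 3.55e-08) and by 0.35 ± 0.03 (log2, SE) with SEL120-34A (edgeR adjusted p = 1.63e-11). The effect at 24 h exceeded that at 8 h by 0.46 ± 0.04 (log2, SE) for AML874 (edgeR adjusted p = 4.81e-10) and by 0.22 ± 0.04 (log2, SE) for SEL120-34A (edgeR adjusted p = 0.00011). MXD4 also rose with time in DMSO alone, by 0.21 ± 0.03 (log2, SE; edgeR adjusted p = 7.61e-07).

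MXD3, a MXD factor expressed in dividing cells, went opposite ways with the 2 compounds at 8 h. It had 20.7, 19.2 and 20.1 CPM in DMSO, 17.5, 17.3 and 18.4 CPM with AML874, and 21.5, 22.6 and 24.3 CPM with SEL120-34A. The 3 groups did not overlap. MXD3 fell by 0.17 on the log2 scale with AML874 (edgeR adjusted p = 0.00262) and rose by 0.19 with SEL120-34A (edgeR adjusted p = 0.000779), and the compounds differed by -0.36 ± 0.05 (SE; edgeR adjusted p = 1.09e-07).

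At 24 h MXD3 had 18.6, 19.1 and 18.6 CPM in DMSO, 15.4, 15.8 and 14.2 CPM with AML874, and 17.1, 17.1 and 17.0 CPM with SEL120-34A. Both compounds were below DMSO, AML874 the lower. Its log2 change was -0.31 ± 0.05 (SE) with AML874 (edgeR adjusted p = 7.46e-07) and -0.14 ± 0.05 (SE) with SEL120-34A (edgeR adjusted p = 0.0139). For SEL120-34A the change of effect from 8 h to 24 h was -0.33 ± 0.06 (log2, SE; edgeR adjusted p = 0.00015). Reads from the strand opposite MXD3 were 5.84 times its own, so its value rests on the strand being read correctly. The unstranded counts gave the same calls for it. MNT, MLX, MYC and MAX had 1.20 to 1.35 times as many stranded as unstranded counts, and their calls for each compound against DMSO were the same with either.

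MXD1, induced as myeloid cells mature, fell most with AML874 at 24 h. It had 31.0, 30.1 and 29.3 CPM in DMSO, 24.3, 22.6 and 22.0 CPM with AML874, and 26.3, 28.7 and 27.0 CPM with SEL120-34A. Both compounds were below DMSO, and the AML874 libraries were below those with SEL120-34A. MXD1 fell by 0.39 on the log2 scale (1.31-fold) with AML874 (edgeR adjusted p = 2.1e-09) and by 0.14 with SEL120-34A (edgeR adjusted p = 0.00808), which did not pass without SEL120-34A 24 h replicate 1 (edgeR adjusted p = 0.058).

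At 8 h MXD1 changed less. It had 29.9, 27.9 and 30.9 CPM in DMSO, 26.6, 27.3 and 26.7 CPM with AML874, and 28.2, 30.5 and 28.1 CPM with SEL120-34A. The AML874 libraries lay just below DMSO, and the SEL120-34A libraries overlapped it. The fall with AML874 was -0.14 ± 0.04 (log2, SE; edgeR adjusted p = 0.0112), and with library totals it was -0.09 (edgeR adjusted p = 0.1). The effect of AML874 was larger at 24 h than at 8 h by -0.26 ± 0.06 (log2, SE; edgeR adjusted p = 0.00178).

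MXI1, the MXD-family member known to be induced by hypoxia through the HIF transcription factors, had the largest fall with AML874 of any member and the largest spread. At 8 h it had 43.9, 38.6 and 58.1 CPM in DMSO, 26.7, 28.1 and 31.0 CPM with AML874, and 36.5, 47.9 and 30.8 CPM with SEL120-34A. The AML874 libraries lay below all DMSO libraries, and those with SEL120-34A overlapped both. MXI1 fell by 0.71 on the log2 scale (1.64-fold, SE 0.19) with AML874 (edgeR adjusted p = 0.00802), and with SEL120-34A its change was -0.29 (edgeR adjusted p = 0.236).

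At 24 h MXI1 had 67.5, 58.1 and 53.7 CPM in DMSO, 45.1, 42.3 and 37.7 CPM with AML874, and 44.0, 59.2 and 47.6 CPM with SEL120-34A. AML874 again lay below DMSO without overlap. Its log2 change was -0.52 ± 0.18 (SE; edgeR adjusted p = 0.0315), a call that was lost without DMSO 24 h replicate 1 (edgeR adjusted p = 0.115), without AML874 24 h replicate 3 (edgeR adjusted p = 0.106), without DMSO 24 h replicate 2 (edgeR adjusted p = 0.0554) and without AML874 24 h replicate 2 (edgeR adjusted p = 0.0684). It was also lost when each gene with at least 1 count was kept (edgeR adjusted p = 0.0555). With SEL120-34A the change was -0.25 (edgeR adjusted p = 0.31), with a 95% interval of -0.64 to 0.14.

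The level of HIF target genes moved with MXI1. The mean log2 CPM of 21 HIF targets, a list without MXI1, ran from 4.78 to 5.47 in DMSO at 8 h, 4.64 to 4.71 with AML874 and 4.54 to 5.21 with SEL120-34A. At 24 h it ran from 5.58 to 5.84 in DMSO, 5.19 to 5.56 with AML874 and 5.24 to 5.70 with SEL120-34A. In 6 of 6 groups the library highest in HIF targets was also the highest in MXI1, and in 5 of 6 groups it was the highest in MXD1. In each comparison with DMSO, 7 or 8 of the 21 HIF targets fell and none rose. Of all genes, 39.6% (AML874) and 45.1% (SEL120-34A) were called at 8 h, 19.9% and 22.6% as lower. At 24 h 46.8% and 37.7% were called, 23.7% and 18.6% as lower. Counting both directions, the share of HIF targets called was below that of all genes each time. The share called lower was above that of all genes each time. The median log2 change of the list was -0.42 (AML874) and -0.22 (SEL120-34A) at 8 h, and -0.33 and -0.24 at 24 h. The list was not tested.

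With the HIF target mean of each library as a term in the model, the change of MXI1 with AML874 was -0.32 at 8 h (edgeR adjusted p = 4.93e-09) and -0.24 at 24 h (edgeR adjusted p = 1.49e-07). In the same model MXI1 was lower with AML874 than with SEL120-34A by -0.25 at 8 h (edgeR adjusted p = 2.85e-07) and by -0.21 at 24 h (edgeR adjusted p = 3.16e-06), where without the term the differences were -0.43 (edgeR adjusted p = 0.109) and -0.27 (edgeR adjusted p = 0.369). MXD1 at 8 h was then at -0.04 with AML874 (edgeR adjusted p = 0.433), while at 24 h it was at -0.32 (edgeR adjusted p = 1.58e-10). The term itself moves with treatment, and the part of HIF activity or oxygen in these changes was not tested.

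The core motifs of HIF binding, ACGTG and GCGTG on either strand (the first lies within every CACGTG), were searched in the 3 RefSeq windows of MXI1 (GRCh38.p14). Of all windows, 21.4% hold ACGTG and 36.5% hold GCGTG. The first is shown in the only MXI1 window that holds it, where CACGT, its reverse complement, stands in capitals 113 bases before the start, because MXI1 followed the HIF targets. GCGTG was found in that window, 127 bases before the start, and in the third window, and none of the motifs in the first.
MXI1, chr10:110210106-110210134, plus strand: gtggccaccagtCACGTaagcagagagcc
This window starts within the MXI1 gene as annotated in GENCODE release 29 (chr10:110207605-110287365, plus strand). Which start these cells use was not analysed here.

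**Figure D4:**
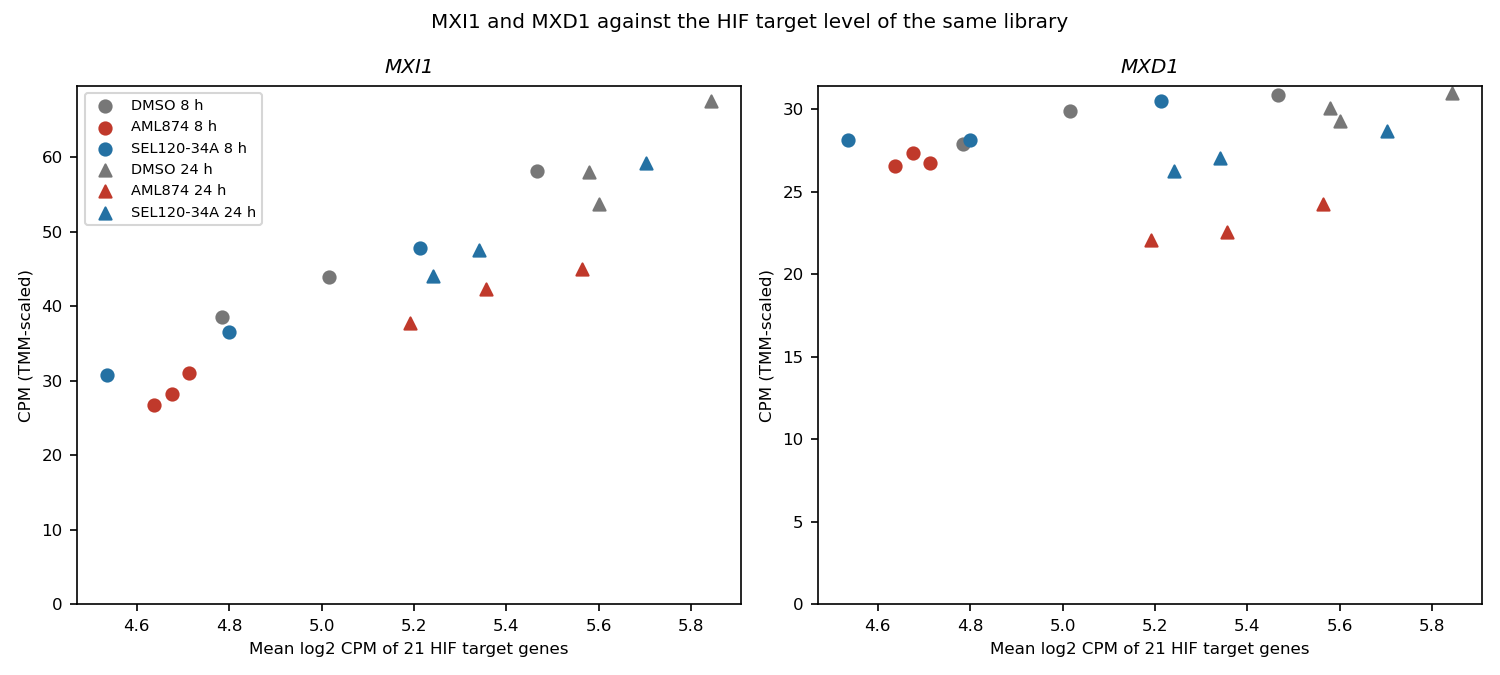
CPM of MXI1 (left) and MXD1 (right) against the mean log2 CPM of 21 HIF target genes in the same library, with circles for 8 h, triangles for 24 h and a color for each compound. Within each group the library farthest right is the highest in MXI1, and MXD1 with AML874 at 24 h lies below the other groups at 22.0 to 24.3 CPM.

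MNT, the most widely expressed of the MAX-binding repressors, fell in all 4 comparisons with DMSO. It had 50.2, 52.4 and 49.5 CPM in DMSO at 8 h, 41.3, 45.4 and 43.4 CPM with AML874, and 45.4, 44.3 and 46.8 CPM with SEL120-34A. In CPM the treated libraries were all below DMSO. In TPM AML874 8 h replicate 2, at 18.1, was above all DMSO libraries of that time (17.0 to 17.1). The log2 change at 8 h was -0.23 with AML874 (edgeR adjusted p = 9.06e-07) and -0.16 with SEL120-34A (edgeR adjusted p = 0.000183). SEL120-34A 24 h replicate 1, at 18.8 TPM, overlapped DMSO at 24 h (18.6 to 20.6 TPM). At 24 h the changes were -0.10 (edgeR adjusted p = 0.00988) and -0.11 (edgeR adjusted p = 0.00518), and that with AML874 was lost without AML874 24 h replicate 3 (edgeR adjusted p = 0.0539) or with a filter of 1 CPM in 3 libraries (edgeR adjusted p = 0.0568).

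MLX, the MAX-like partner of MLXIP and of some MXD factors, also fell in all 4. It had 76.5, 76.0 and 72.8 CPM in DMSO at 8 h, 68.9, 67.9 and 68.8 CPM with AML874, and 65.7, 64.6 and 68.7 CPM with SEL120-34A. No treated library reached the lowest DMSO library. The changes were -0.13 (edgeR adjusted p = 0.00073) and -0.18 (edgeR adjusted p = 1.03e-05) at 8 h. At 24 h they were -0.18 with AML874 (edgeR adjusted p = 1.07e-05) and -0.18 with SEL120-34A (edgeR adjusted p = 1.87e-05), and the compounds differed by 0.00 with a 95% interval of -0.06 to 0.06.

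MLXIP, which shuttles to the nucleus when glucose metabolites build up, fell with AML874 and was lower with it than with SEL120-34A. It had 119, 125 and 119 CPM in DMSO at 8 h, 107, 113 and 111 CPM with AML874, and 122, 114 and 120.1 CPM with SEL120-34A. The AML874 libraries were lowest, and SEL120-34A overlapped DMSO. MLXIP changed by -0.14 with AML874 at 8 h (edgeR adjusted p = 0.000183) and by -0.11 at 24 h (edgeR adjusted p = 0.00147), against -0.03 (edgeR adjusted p = 0.418) and 0.00 (edgeR adjusted p = 0.962) with SEL120-34A. The compounds differed by -0.11 at 8 h (edgeR adjusted p = 0.00377) and by -0.11 at 24 h (edgeR adjusted p = 0.00559). At 24 h that difference was lost without SEL120-34A 24 h replicate 1 (edgeR adjusted p = 0.0582).

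MGA, the scaffold of the Polycomb variant PRC1.6, was lower with SEL120-34A at 8 h and higher at 24 h. It had 84.4, 82.8 and 82.5 CPM in DMSO at 8 h against 77.0, 78.2 and 78.5 CPM with SEL120-34A, and 75.0, 77.0 and 77.3 CPM in DMSO at 24 h against 83.9, 81.3 and 82.3 CPM. The groups did not overlap at either time. The log2 change was -0.10 ± 0.03 (SE) at 8 h (edgeR adjusted p = 0.0104) and 0.11 ± 0.03 (SE) at 24 h (edgeR adjusted p = 0.00381), and the effects differed by 0.21 ± 0.04 (SE; edgeR adjusted p = 0.000355). With library totals the change at 8 h was -0.03 and did not pass (edgeR adjusted p = 0.488).

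With AML874 at 8 h MGA had 91.3, 90.9 and 83.4 CPM. The lowest library overlapped DMSO and the others were above it. MGA changed by 0.09 on the log2 scale (edgeR adjusted p = 0.0173), a call lost without any 1 of DMSO 8 h replicates 1, 2 and 3 or AML874 8 h replicates 1 and 2 (edgeR adjusted p from 0.0582 to 0.264).

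Between the compounds at 8 h, 6 members differed, 1 higher and 5 lower with AML874, where 31.2% of all genes did, 16% higher and 15.2% lower. Libraries of the 2 compounds did not overlap for 7 members, against 43.2% of all genes. MAX was lower with AML874 by -0.16 (edgeR adjusted p = 6.68e-06), MXD4 by -0.34 (edgeR adjusted p = 1.14e-10), and MGA was higher by 0.19 (edgeR adjusted p = 1.07e-05). At 24 h 6 members differed, each lower with AML874, where 19.6% of all genes did, 8% higher and 11.6% lower. Libraries did not overlap for 7 members, against 32.5% of all genes. MXD1 was lower by -0.25 (edgeR adjusted p = 6.35e-05), MXD3 by -0.17 (edgeR adjusted p = 0.00801), MXD4 by -0.11 (edgeR adjusted p = 0.00886) and MGA by -0.09 (edgeR adjusted p = 0.0337). The MGA difference was lost in 5 other settings and without AML874 24 h replicate 1 or 2 or SEL120-34A 24 h replicate 1 or 3. That of MXD4 was lost without AML874 24 h replicate 2 (edgeR adjusted p = 0.0869), and that of MXD3 without AML874 24 h replicate 3 (edgeR adjusted p = 0.0812).

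In DMSO alone, 4 members changed from 8 h to 24 h, where 42.5% of all genes did, 19.8% higher and 22.7% lower. Libraries of the 2 times did not overlap for 7 members, against 50% of all genes. MXD4 rose, and MAX fell by 0.13 (edgeR adjusted p = 6.58e-05), MLX by 0.10 (edgeR adjusted p = 0.0067) and MGA by 0.12 (edgeR adjusted p = 0.00115). The MLX fall did not pass without DMSO 8 h replicate 1 or 2 or DMSO 24 h replicate 3 (edgeR adjusted p from 0.0752 to 0.109), with library totals (-0.06, edgeR adjusted p = 0.0861) or with the HIF target mean as a term (-0.05, edgeR adjusted p = 0.327). MNT passed as higher at 24 h in 7 other settings (adjusted p from 0.00522 to 0.0444), with library totals at 0.11, and without DMSO 8 h replicate 2 (0.11, edgeR adjusted p = 0.0122). MYC changed by -0.04 (edgeR adjusted p = 0.227), and without DMSO 24 h replicate 1 by -0.07 (edgeR adjusted p = 0.0296). Time in culture and time with DMSO cannot be told apart. The effect of AML874 differed between the times for 3 members (MXD4 and MAX up, MXD1 down), where 23.6% of all genes did, 11.1% up and 12.5% down. That of SEL120-34A differed for 3 (MXD4 and MGA up, MXD3 down), where 27.3% of all genes did, 14.2% up and 13% down.

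The genes most like each member in pattern over the 18 libraries were ranked by Pearson r of log2 CPM among 9925 protein-coding genes, as a description. MYC ran closest to TRIM8 (r = 0.97), STON1 (r = 0.96) and ATXN7L3 (r = 0.96). MXD4 ran closest to IP6K2 (r = 0.98), GNPTAB (r = 0.98) and TTLL5 (r = 0.97). MXI1 ran closest to INSIG2 (r = 0.96), a HIF target of the list above, NEDD9 (r = 0.96) and RFFL (r = 0.95). The closest to MXD1 were ACVR2B (r = 0.94), TRIM7 (r = 0.94) and VPS37C (r = 0.93), and to MXD3 SS18 (r = 0.96), STK11IP (r = 0.94) and GLTP (r = 0.94). The libraries share groups, depth and scaling. Within groups (each gene's deviations from its group means) r was still 0.97, 0.95 and 0.91 for MXI1 with INSIG2, NEDD9 and RFFL. It was 0.80, 0.69 and 0.64 for MYC with TRIM8, STON1 and ATXN7L3, but 0.36, 0.10 and 0.36 for MXD4 with IP6K2, GNPTAB and TTLL5. For MXD1 with ACVR2B, TRIM7 and VPS37C it was 0.65, 0.77 and 0.46. For MXD3 with SS18, STK11IP and GLTP it was 0.45, -0.00013 and 0.13.

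The genes around the network were followed in lists that were named for their roles. No list was tested against other genes, and their counts stand beside the share of all genes called, 39.6% and 45.1% at 8 h and 46.8% and 37.7% at 24 h for AML874 and SEL120-34A. Of 17 genes of the SIN3 and HDAC corepressor, which MXD and MNT proteins recruit, 7 fell and 1 rose with AML874 at 8 h, and 5 fell and 4 rose with SEL120-34A. At 24 h 6 fell and 2 rose with AML874, and 6 fell and 3 rose with SEL120-34A. The called genes exceeded the share over all genes by less than 3 genes in each comparison. The list's median log2 change lay between -0.05 and 0.01 in the 4 comparisons. HDAC1, a catalytic subunit, fell by 0.27 with AML874 (edgeR adjusted p = 4.81e-11) and by 0.26 with SEL120-34A (edgeR adjusted p = 7.85e-11) at 8 h, and by 0.18 (edgeR adjusted p = 1.15e-07) and 0.20 (edgeR adjusted p = 3.71e-08) at 24 h.

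SIN3A, the scaffold that the MXD proteins bind, fell at 8 h by 0.18 with AML874 (edgeR adjusted p = 5.69e-07) and by 0.28 with SEL120-34A (edgeR adjusted p = 3.97e-11). At 24 h its changes were -0.04 and 0.04. Group means were 120.4 CPM in DMSO, 106 CPM with AML874 and 99.1 CPM with SEL120-34A at 8 h, and 128, 124 and 131 CPM at 24 h. SAP30L, a subunit of the same complex, rose by 0.48 with SEL120-34A at 8 h (edgeR adjusted p = 9.63e-15) and by 0.27 at 24 h (edgeR adjusted p = 9.92e-09).

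Of the 11 partners of MGA in PRC1.6, 6 fell and none rose with AML874 at 8 h, and 8 fell and none rose at 24 h. With SEL120-34A 5 fell and 2 rose at 8 h, and 6 fell and 1 rose at 24 h. TFDP1, a dimer partner of E2F6 in the complex, fell by 0.19 with AML874 (edgeR adjusted p = 7.78e-07) and by 0.34 with SEL120-34A (edgeR adjusted p = 2.4e-12) at 8 h. L3MBTL2, a subunit that binds chromatin, fell by 0.36 with SEL120-34A at 8 h (edgeR adjusted p = 9.22e-11) and differed between the compounds by 0.36 (edgeR adjusted p = 5.61e-10). PCGF6, the subunit that defines this complex, changed by -0.01 and 0.02 at 8 h and by 0.02 and 0.03 at 24 h, and no change passed.

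Among 13 cofactors that MYC uses to activate genes, 7 fell and 2 rose with AML874 at 8 h, and 8 fell and 2 rose with SEL120-34A. At 24 h 7 fell and 1 rose with AML874, but 2 fell and 1 rose with SEL120-34A. EP300, a histone acetyltransferase, fell by 0.28 with each compound at 8 h (edgeR adjusted p = 4.3e-11 and 5.21e-11), by 0.31 with AML874 at 24 h (edgeR adjusted p = 2.54e-12) and by 0.07 with SEL120-34A at 24 h (edgeR adjusted p = 0.025). For SEL120-34A the effects on EP300 at the 2 times differed by 0.21 (edgeR adjusted p = 3.58e-05).

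Of 13 genes that set the stability of MYC protein, 6 fell and 2 rose with each compound at 8 h, and 4 fell and 1 rose with each at 24 h. The 5 of 13 called at 24 h are a share below that over all genes with AML874 and close to it with SEL120-34A. The deubiquitinase USP7 fell in all 4 comparisons, by 0.17 (edgeR adjusted p = 1.67e-07) and 0.23 (edgeR adjusted p = 3.47e-10) at 8 h and by 0.21 (edgeR adjusted p = 3.04e-09) and 0.13 (edgeR adjusted p = 2.06e-05) at 24 h, with AML874 and SEL120-34A in that order. The ubiquitin ligase gene STUB1 rose by 0.33 with AML874 at 8 h (edgeR adjusted p = 6.16e-10), and FBXW7, which targets phosphorylated MYC, by 0.17 (edgeR adjusted p = 8.97e-05). MYC protein was not measured.

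Of 30 genes that MYC is known to activate, 13 fell and 5 rose with AML874 at 8 h (median log2 change -0.03), and 18 fell and 2 rose with SEL120-34A (median -0.12). At 24 h 18 fell and 5 rose with AML874 (median -0.10), and 14 fell and 5 rose with SEL120-34A (median -0.07). Of all genes, 19.9% and 22.6% were lower at 8 h and 23.7% and 18.6% at 24 h, with AML874 and SEL120-34A in that order. Library totals put the median of all genes at 8 h at 0.05 with AML874 and 0.06 with SEL120-34A, the first a larger shift than the list's own median. In DMSO alone 26 of the 30 fell from 8 h to 24 h and 1 rose (median -0.22), where 22.7% of all genes were lower and 19.8% higher. MYC itself did not pass the test there, and how these genes relate to its level was not tested. ODC1, the rate-limiting enzyme of polyamine synthesis, fell from 474 ± 22.2 CPM (SD, n = 3) in DMSO at 8 h to 413 ± 5.95 CPM with AML874 and 366 ± 14.3 CPM with SEL120-34A, and from 332 ± 3.87 CPM in DMSO at 24 h to 254 ± 13.4 CPM and 268 ± 20.9 CPM.

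The list was not uniform. CAD, an enzyme of pyrimidine synthesis, rose by 0.33 with AML874 at 8 h (edgeR adjusted p = 4.48e-10) and by 0.26 with SEL120-34A at 24 h (edgeR adjusted p = 6.2e-08). TFRC, the transferrin receptor, rose at 24 h by 0.44 with AML874 (edgeR adjusted p = 1.4e-17) and by 0.25 with SEL120-34A (edgeR adjusted p = 4.99e-11), and fell by 0.59 with time in DMSO (edgeR adjusted p = 4.14e-20). TERT, the catalytic subunit of telomerase, rose by 0.59 (edgeR adjusted p = 1.02e-12) and 0.41 (edgeR adjusted p = 1.13e-08). At 8 h 16 of the 30 were higher and 2 lower with AML874 than with SEL120-34A, where 16% of all genes were higher and 15.2% lower. MYC was lower with AML874 in that comparison.

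**Figure D5:**
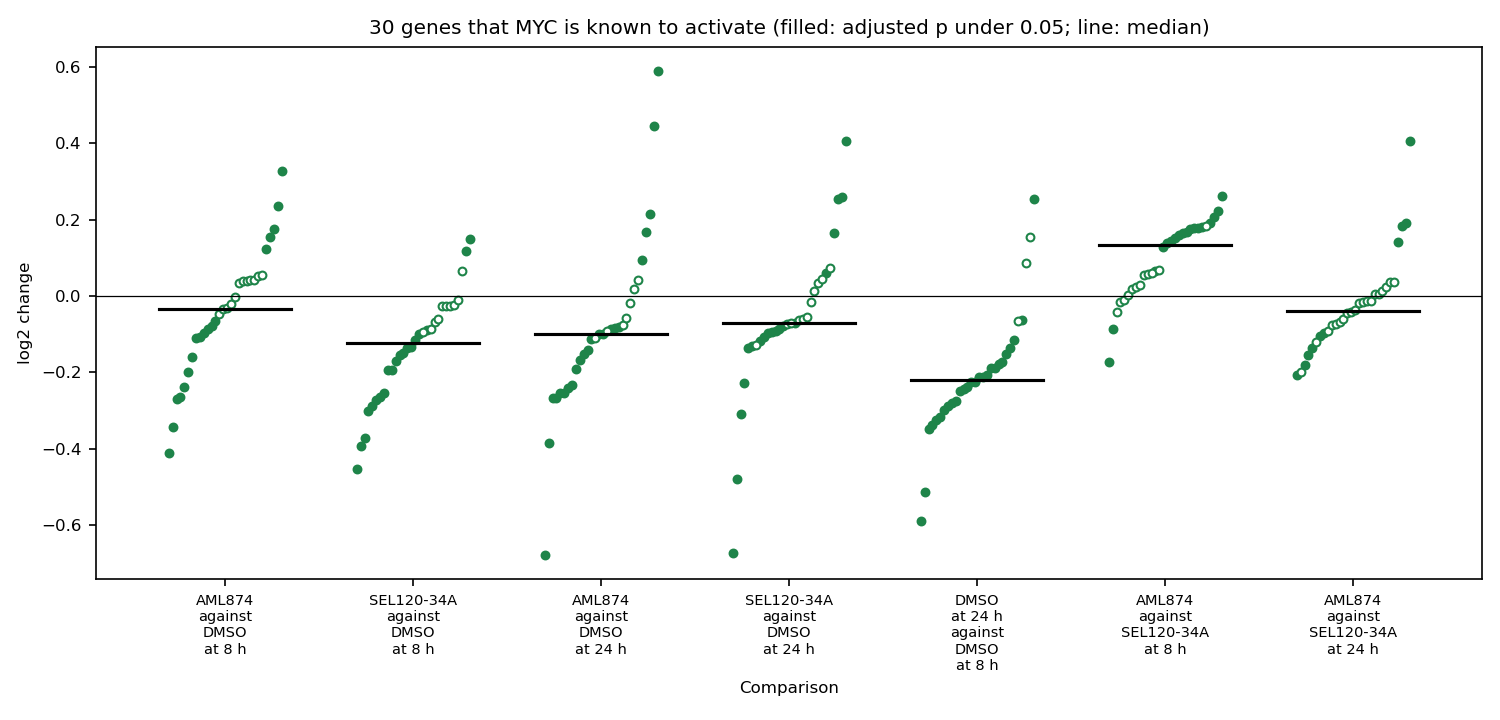
log2 change of 30 genes that MYC is known to activate in 7 comparisons, sorted within each, with filled points for an edgeR adjusted p under 0.05 and a line at the median. The median is lowest, at -0.22, for DMSO at 24 h against 8 h, and above 0, at 0.13, for AML874 against SEL120-34A at 8 h.

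Of 8 genes that MYC is known to repress, 7 were tested. With AML874 3 fell and none rose at 8 h, and 3 fell and 1 rose at 24 h. With SEL120-34A 2 fell and none rose at 8 h, and 2 fell and 3 rose at 24 h. CDKN1B, the cyclin-dependent kinase inhibitor p27, went at 24 h from 65.8 ± 1.82 CPM (SD, n = 3) in DMSO to 89.0 ± 0.711 CPM with AML874 and 86.8 ± 3.79 CPM with SEL120-34A. That is a rise of 0.43 ± 0.04 (log2, SE; edgeR adjusted p = 4.25e-12) and 0.40 ± 0.04 (log2, SE; edgeR adjusted p = 6e-11). CDKN1A, the inhibitor p21, fell with AML874 by 0.45 at 8 h (edgeR adjusted p = 0.00793). Its mean at 24 h was 95.9 CPM with AML874 against 133 CPM in DMSO. NDRG2 fell by 0.40 with AML874 at each time, and with SEL120-34A by 0.25 at 8 h and 0.42 at 24 h (edgeR adjusted p from 6.88e-06 to 0.00384). CEBPA fell with AML874 by 0.35 at 8 h (edgeR adjusted p = 0.000146) and by 0.45 at 24 h (edgeR adjusted p = 1.1e-05). With SEL120-34A CEBPA fell by 0.16 at 8 h (edgeR adjusted p = 0.0355).

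Of 5 targets of MLXIP and MLX, 3 fell at 8 h in the AML874 libraries and 5 in those given SEL120-34A, 4 fell with each at 24 h, and none rose in these 4 comparisons. The part of MLXIP and MLX in these falls was not tested. The members that did not pass with AML874 at 8 h were ARRDC4, at -0.02 (edgeR adjusted p = 0.851), and KLF10, at 0.09 (edgeR adjusted p = 0.312). TXNIP, the thioredoxin-interacting brake on glucose uptake and the best-known target of MLXIP, had 128, 125 and 144 CPM in DMSO at 8 h, 70.5, 68.0 and 72.2 CPM with AML874, and 70.9, 74.0 and 71.0 CPM with SEL120-34A. Both compounds were far below DMSO, and they overlapped each other. TXNIP fell by 0.92 ± 0.06 (log2, SE) with AML874 (edgeR adjusted p = 9.64e-09) and by 0.88 ± 0.06 (log2, SE) with SEL120-34A (edgeR adjusted p = 1.16e-08).

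At 24 h TXNIP had 219.7, 199 and 199.8 CPM in DMSO, 150.4, 146 and 132 CPM with AML874, and 139, 145 and 138 CPM with SEL120-34A. It was again lower with both compounds than in DMSO, whose own level was higher than at 8 h. The fall was 0.53 ± 0.06 (log2, SE; edgeR adjusted p = 2.14e-06) and 0.55 ± 0.06 (log2, SE; edgeR adjusted p = 2.23e-06), less than at 8 h by 0.39 for AML874 (edgeR adjusted p = 0.00283) and by 0.33 for SEL120-34A (edgeR adjusted p = 0.0076). ARRDC4, a relative of TXNIP and also a target, fell by 0.21 with each compound at 24 h (edgeR adjusted p = 0.00153 and 0.00244). HK2 fell by 0.38 and 0.39 at 8 h (edgeR adjusted p = 0.00205 and 0.00143).

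Other factors with the same basic helix-loop-helix and zipper fold also bind E-boxes. Of 10, 9 were tested, among them MYCL, a relative of MYC. With AML874 6 fell and 1 rose at 8 h and 7 fell and 1 rose at 24 h. With SEL120-34A 4 fell and 2 rose at 8 h and 7 fell and none rose at 24 h. TFEB, a regulator of lysosome genes, had 11.7, 11.7 and 11.1 CPM in DMSO at 24 h, 6.45, 6.78 and 6.44 CPM with AML874, and 6.66, 7.39 and 6.81 CPM with SEL120-34A. It fell by 0.81 ± 0.06 (log2, SE; edgeR adjusted p = 1.97e-13) and by 0.73 ± 0.06 (log2, SE; edgeR adjusted p = 4.68e-12). MITF rose by 0.49 with SEL120-34A at 8 h (edgeR adjusted p = 1.41e-05) and differed between the compounds by -0.86 (edgeR adjusted p = 2.64e-09).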

How the data were processed

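Per the submitters' processing notes, reads were handled with STAR 2.7.1a, RSEM 1.3.2 and the build GRCh38. The authors deposited 1 file of counts per library, with unstranded, forward and reverse columns, and 1 RSEM file with expected counts and TPM values. The annotation release is not given in the sources used here. Gene symbols and positions came from a table of gene names and GENCODE release 29.

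Reverse counts were tested, since forward counts were 6.27 to 6.66% of them. Summary lines, 21.9 to 25.5% of the reads, were left out. CPM are scaled with TMM, except the marker sums and the count of markers with at least 1 CPM, which use library totals. Genes kept by filterByExpr entered 1 model of 6 groups with 12 residual degrees of freedom in edgeR 4.0.16 (R 4.3.3, quasi-likelihood test, robust). A call needed p under 0.05 after Benjamini-Hochberg adjustment over all 20920 genes. log2 CPM used a prior count of 2. The fit was tested on simulated data. Replicates may be technical, so p-values measure only the spread between these libraries. Replicate numbers were read from the labels and do not enter the model. Same-numbered libraries deviated together in every pair of 1 comparison, AML874 against DMSO at 24 h (r from 0.174 to 0.375).

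The members, the lists and the tests were chosen with earlier results of these data known. Named were all members, up to 3 called genes of a list per comparison with the lowest p, of which some are given, and TXNIP, ARRDC4, ODC1, CDKN1A, SIN3A and PCGF6. Likeness was ranked among protein-coding genes of at least 5 CPM on average, and 3 genes are given for each of 5 members. NDRG1 is in both the HIF list and the list of genes repressed by MYC. Alternatives were other scaling, filters, tools (DESeq2 1.42.0, limma 3.58.1), a replicate block, fewer groups, unstranded and RSEM expected counts (rounded to whole numbers), the HIF target mean as a term and each library left out. Promoter windows were matched by symbol.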

Additional observations from a re-analysis of the deposited data

Results flagged for a closer look

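The effect of AML874 on 3 members differed between 24 h and 8 h by a test of the difference itself (edgeR, adjusted over all genes). These were MXD4 (0.46 on the log2 scale), MXD1 (-0.26) and MAX (0.10, edgeR adjusted p = 0.0477). The MAX difference was lost in 8 other settings (edgeR or DESeq2 adjusted p from 0.0547 to 0.305). It was also lost without any 1 of DMSO 8 h replicates 1 and 2, DMSO 24 h replicate 3 and AML874 24 h replicates 1, 2 and 3 (edgeR adjusted p from 0.0513 to 0.106). The effect of SEL120-34A differed between the times for MXD3 (-0.33), MXD4 (0.22) and MGA (0.21), and these 3 calls held with each library left out in turn.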

How the results depend on the processing

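Each comparison kept its count of changed members within 1.5 times under every setting tried. Leaving out 1 library at a time, the counts ran from 8 to 10 and from 7 to 7 for AML874 and SEL120-34A against DMSO at 8 h, from 6 to 8 and from 7 to 8 at 24 h, from 6 to 8 and from 4 to 6 between the compounds at 8 h and 24 h, from 3 to 5 for DMSO over time, and from 2 to 4 and from 3 to 3 for the effects over time. Of 1080 single values in other settings 1025 stayed on their side of the threshold, 23 lost a call and 31 gained one. The value that turned was MXI1 in DMSO at 24 h against 8 h, from 0.35 to -0.16 with the HIF target mean as a term (edgeR adjusted p = 0.00326). The cause was not tested. Library totals moved the share of calls that were higher from 49.8 to 63.5% for AML874 and from 49.8 to 66.5% for SEL120-34A at 8 h, from 46.7 to 57.1% for DMSO over time, and from 47.1 to 30.7% and 52.2 to 29.1% for the 2 effects over time. Leaving out in each group the library highest in HIF targets, chosen after seeing the data, gave 9, 7, 8 and 8 changed members in the 4 comparisons with DMSO, where MXD1 with AML874 at 8 h lost its call (edgeR adjusted p = 0.0549). With a replicate block the count was 9, 7, 8 and 8, and of the 9 comparisons the block lost 1 call, that of MAX for the effect of AML874 over time (edgeR adjusted p = 0.0601). Same-numbered libraries deviated together with r over 0.1 in 5 of 21 pairs. For AML874 against DMSO at 24 h all 3 pairs were over 0.1 (0.174 to 0.375), each library being closest to its own number, and there the block changed no call. In DMSO at 24 h against 8 h replicate 2 was also over 0.1 (0.346), being closest to its own number. Between the compounds at 24 h replicate 3 was at 0.169. The labels do not say what a number marks. With counts per effective length in place of TPM, 8 of 10 members kept their rank by level.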

Other observations

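MLXIP and MLX form one dimer, and their ratio lay apart from DMSO in 3 of the 4 treated groups, a difference on which no test was run. The ratio of MLXIP to MLX in TPM was 0.411 to 0.470 in DMSO at 8 h and 0.492 to 0.516 with SEL120-34A, and 0.457 to 0.492 in DMSO at 24 h, 0.495 to 0.523 with AML874 and 0.537 to 0.588 with SEL120-34A. With AML874 at 8 h it was 0.434 to 0.480 and overlapped DMSO. MYCL, a relative of MYC at 3.24 ± 0.174 CPM (SD, n = 3) in DMSO at 8 h, fell at 24 h to 2.22 ± 0.207 CPM with AML874 from 3.41 ± 0.304 CPM in DMSO (log2 change -0.62, edgeR adjusted p = 1.69e-06).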
